A study of Mus musculus with 8 samples.

Results

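Ion channels, their auxiliary subunits and the purine receptors that feed calcium signals were followed in bone marrow-derived mesenchymal cells that lack hyaluronan synthesis. The set comprised 189 of the 49868 named loci in the deposited gene table. It was chosen by symbol alone: potassium channels (Kcn), voltage-gated sodium and calcium channels (Scn, Cacn), transient receptor potential channels (Trp), Piezo channels, purine receptors (P2rx, P2ry), chloride channels and transporters (Clcn), anoctamins (Ano), inositol trisphosphate receptors (Itpr) and polycystins (Pkd). Of these 189 genes, 42 reached 1 FPKM in 4 or more of the 8 libraries. FPKM (fragments per kilobase of transcript, scaled to the mapped fragments of the library) is the unit of the deposited values. A further 7 symbols that fit the same pattern, Clcn6, Kcnab2, Kcnd1, Kcnk4, Kcnn4, P2ry6 and Trpc2, are not names of a locus in the table and were not analysed here.

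Hyaluronan is a long sugar polymer of the extracellular matrix produced by enzymes of the plasma membrane that the genes Has1, Has2 and Has3 encode. The tested cells were mesenchymal stem cells (MSc) from the femora and tibiae of 4 Has-tKO mice, which carry constitutive knockouts of Has1 and Has3 and a Cre-dependent Has2 knockout that 4-hydroxytamoxifen induces. The comparison cells came from 4 wildtype C57Bl6/J mice, and each library came from 1 mouse. Both groups were grown for 4 passages, received 4-hydroxytamoxifen for 48 h during passages 2 and 3, and were collected on day 7 of osteogenic differentiation in culture, so the drug is shared by all 8 libraries. The driver of the inducible Cre, its presence or absence in the wildtype mice, the strain background of Has-tKO and the ages of the mice are not stated in the labels. The study asked how the loss of hyaluronan synthesis bears on osteogenic differentiation.

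Osteoblast-lineage cells sense load and matrix stiffness partly through cation channels that open under membrane tension, Piezo1 being the main one described in mouse bone. Calcium that enters through these channels, through voltage-gated channels or through ATP-gated P2X receptors adds to calcium released from the endoplasmic reticulum by inositol trisphosphate receptors. Potassium channels set the membrane potential that drives this entry, and chloride channels and anoctamins carry the matching anion flow and, in Ano6, lipid scrambling.

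Several features of the libraries bear on every value below. Wildtype 1 stood apart: Has-tKO libraries had median-ratio size factors of 1.08 to 1.14, the other wildtype libraries 0.984 to 1.08, and wildtype 1 had 0.660. Wildtype 1 held 33 members at 1 FPKM or more, where Has-tKO libraries held 38 to 44 and the other wildtype libraries 41 to 43. Members are therefore given as deposited and, for many of them, also after median-ratio scaling. A fold change without a label is the one as deposited, and scaling can change its size. Loci without a gene name took 47.0% to 56.4% of the FPKM in Has-tKO libraries and 45.4% to 61.5% in wildtype libraries. Has1 and Has2 name no locus of the table and were not analysed here. Has3 stayed below the filter on low values, with 0.503 ± 0.238 FPKM in Has-tKO and 0.378 ± 0.0995 FPKM in wildtype (SD, n = 4 each). The labels do not say which stretch of Has3 is deleted, so this value does not check them. The cells expressed defining genes of the osteoblast lineage. The matrix protein gene Ibsp averaged 147 ± 22.6 FPKM in Has-tKO and 296 ± 97.9 FPKM in wildtype, and the transcription factor gene Runx2 averaged 4.47 ± 0.731 FPKM in Has-tKO and 5.95 ± 1.82 FPKM in wildtype.

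Markers of other cells were present as well. The 18 named myeloid markers summed to 689 to 1116 FPKM in Has-tKO libraries and 404 to 698 FPKM in wildtype libraries, and none of the 18 was at 0 in any library. Of the 17 tested, 3 were higher in Has-tKO as deposited (Cx3cr1, Spi1 and Cd52) and 1 after scaling, with a median log2 fold change of 1.01 as deposited and 0.76 after scaling. The chondrocyte list summed to 158 to 227 FPKM in Has-tKO and 182 to 309 FPKM in wildtype, and of its 7 tested genes 3 were lower in Has-tKO as deposited and 4 after scaling. The smooth muscle and pericyte list summed to 177 to 303 FPKM in Has-tKO and 84.8 to 170.0 FPKM in wildtype, with Tagln of its 6 tested genes higher as deposited. Of 5 tested osteoblast genes, Alpl and Ibsp were lower after scaling alone, while Dmp1 had a positive fold change that did not pass (log2 0.62 as deposited, 0.39 after scaling). Of 4 tested osteoclast genes, Acp5 was lower after scaling alone, while Tnfrsf11a had a positive fold change that did not pass (log2 0.70 as deposited, 0.46 after scaling). Osteoclast markers summed to 31.1 to 51.4 FPKM in Has-tKO and 34.5 to 110 FPKM in wildtype. Endothelial markers summed to 7.45 to 7.96 FPKM in Has-tKO and 6.25 to 7.61 FPKM in wildtype, and the lymphoid genes Cd3e and Cd3g were at 0 in all 8 libraries. The stromal progenitor, adipocyte and neural lists, with 6, 2 and 2 tested genes, gave 0 calls in either fit from limma, and 0, 0 and 1 at an unadjusted p under 0.05. In RNA from a whole culture, fewer cells of a type and less RNA per cell cannot be told apart.

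Most channel genes were silent or nearly so. Of the 189, 30 were at 0 in all 8 libraries, 139 never reached 1 FPKM, 8 reached it in 1 to 3 libraries, and 29 reached it in all 8. The filter fell between Clcn3 and Scn2a, which reached 1 FPKM in 3 libraries each, and P2ry2, which reached it in 4. Voltage-gated potassium channels, the largest family, had 2 tested genes of 39 (Kcns1 and Kcnh2), inward rectifiers 2 of 15 and potassium channel auxiliary subunits 1 of 15. Voltage-gated calcium channel pores had 5 tested genes of 10, their auxiliary subunits 4 of 16 and transient receptor potential channels 5 of 21. Both Piezo genes, both polycystins and all 3 inositol trisphosphate receptors passed the filter. A member that passed only through the group in which it was high had to differ, so no count over the 42 is a count over the whole set.

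A total of 6 members averaged 10 FPKM or more over the 8 libraries, of which 5 are described here. Piezo1, a pore that opens under membrane tension, was the highest, with 40.9 ± 4.75 FPKM in Has-tKO and 32.8 ± 10.9 FPKM in wildtype (SD, n = 4 each, as for all such values). Below it lay Pkd1, a polycystin of the primary cilium, with 25.8 ± 3.00 FPKM in Has-tKO and 24.4 ± 5.56 FPKM in wildtype. Clcn7, the lysosomal chloride and proton exchanger, had 15.7 ± 1.45 FPKM in Has-tKO and 15.6 ± 4.61 FPKM in wildtype, and Pkd2, the channel partner of Pkd1, had 14.4 ± 1.68 FPKM in Has-tKO and 15.1 ± 3.17 FPKM in wildtype. Cacna1g, a low-voltage-activated (T-type) calcium pore, had 13.0 ± 1.54 FPKM in Has-tKO and 11.3 ± 3.13 FPKM in wildtype. The ranges of Clcn7, Pkd2 and Cacna1g overlapped, while Pkd1 lay above Clcn7 in every library. None of the 5 passed the test between the genotypes in either fit (adjusted p from limma of 0.474 or more as deposited and 0.171 or more after scaling). Loci are merged transcript models, so a level can include reads of an overlapping gene, such as Ctu2 at Piezo1 or Tsc2 at Pkd1, and 30 of the 42 tested members overlap another annotated gene.

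Few members passed the test between the genotypes. Of the 42 tested members, 1 passed the test as deposited (Cacna1a, higher in Has-tKO), or 2.38%, where 1.77% of all 9916 tested genes passed (157 higher, 1.58%, and 19 lower, 0.192%). After scaling 3 passed, Cacna1a higher and Cacna1h and Cacng7 lower, or 7.14%, where 2.65% of all tested genes passed (135 higher, 1.36%, and 128 lower, 1.29%). All 3 carry symbols of the calcium channel families (Cacn), which supplied 5 pores and 4 auxiliary subunits to the 42 tested members. At an unadjusted p under 0.05 stood 11 members as deposited (26.2%, beside 16.7% of all tested genes) and 17 after scaling (40.5%, beside 18.6%). The median log2 fold change of the 42 was 0.09 as deposited, beside 0.16 over all tested genes, and -0.09 after scaling, beside -0.03. Fold changes are differences of group means of log2(FPKM + 1), Has-tKO less wildtype, and are compressed near and below 1 FPKM. The fold change was positive in 25 and negative in 17 members as deposited (59.5% positive, beside 73.3% of all tested genes), and positive in 18 and negative in 24 after scaling (42.9% positive, beside 44.9%), since 7 members near no change (Ano10, Cacna1g, Clcn2, Clcn4, Clcn7, Itpr2 and Pkd1) changed sign. It lay within 0.5 of no change for 30 members as deposited (71.4%, beside 86.7% of all tested genes) and for 33 after scaling (78.6%, beside 89.6%).

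**Figure D1:**
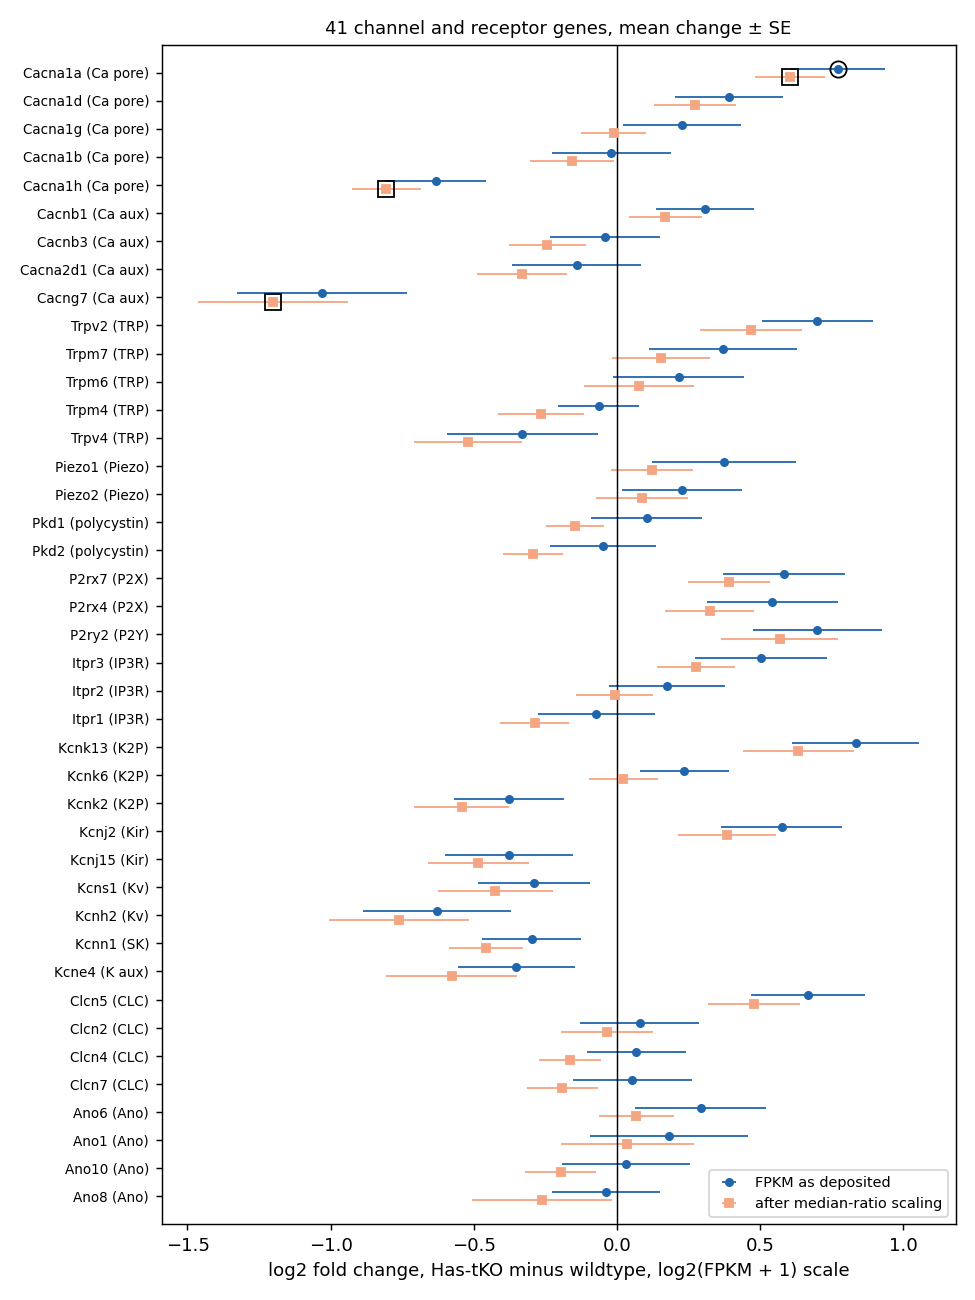
Log2 fold change (Has-tKO minus wildtype, log2(FPKM + 1) scale, horizontal axis) of 41 of the 42 tested members, grouped by family, with bars for the standard error; blue circles are values as deposited, orange squares values after median-ratio scaling, and black outlines mark an adjusted p of 0.05 or less. Cacna1a is outlined on the right in both fits, and Cacna1h and Cacng7 on the left after scaling alone.

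Every member that passed carries a calcium channel (Cacn) symbol. Cacna1a encodes the pore of the P/Q-type channel, known for transmitter release at synapses. It had 3.48, 2.84, 2.26 and 3.16 FPKM in Has-tKO 1 to 4, against 0.938, 1.54, 1.52 and 1.22 FPKM in wildtype 1 to 4. Every Has-tKO library was above every wildtype library, as deposited and after scaling, and wildtype 1 was the lowest as deposited but level with wildtype 2 and 3 after scaling. Its log2 fold change was 0.77 (SE 0.16, adjusted p from limma 0.0404), and 0.60 (SE 0.12, adjusted p 0.0389) after scaling. The call was sensitive to single libraries: leaving out 1 at a time, it held without wildtype 1 or wildtype 3 alone, with an adjusted p of 0.0327 to 0.165 over the 8 fits. After scaling it held without Has-tKO 3 or wildtype 1 alone (0.0400 to 0.140). The fold change stayed positive in all 16 of these fits. With all 8 libraries the call was also lost with a pseudocount of 0.1 (adjusted p 0.0534) and with no filter on low values (0.164). The same held when libraries of the same replicate number were fitted as a block, with or without scaling.

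Near Cacna1a on chromosome 8 lie Ier2, an immediate early gene, and Zswim4, and both were higher in Has-tKO as well. They were looked up after the call was seen, and the other genes of that stretch are not described. Ier2 had 16.1, 10.2, 14.1 and 14.5 FPKM in Has-tKO 1 to 4, against 5.76, 4.97, 5.09 and 6.53 FPKM in wildtype 1 to 4 (log2 fold change 1.15, SE 0.17, adjusted p from limma 0.0127). Zswim4 averaged 11.0 ± 2.21 FPKM in Has-tKO and 5.71 ± 0.712 FPKM in wildtype (log2 fold change 0.83, SE 0.17, adjusted p 0.0362, and 0.0626 after scaling). As deposited, Ier2 passed in 6 of 8 fits that leave out 1 library, not without Has-tKO 1 or wildtype 4 (0.0104 to 0.0648), and Zswim4 passed without wildtype 1 or wildtype 3 alone (0.0282 to 0.150). After scaling the log2 fold change of Ier2 was 0.91 (SE 0.20, adjusted p from limma 0.0486). It then passed in 1 of those 8 fits, without wildtype 1 (0.0216 to 0.169). The libraries do not mark strand, and the part of reads from neighbouring transcripts in the Cacna1a value was not tested.

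Cacna1h encodes a T-type calcium pore, the sister of Cacna1g. It had 1.46, 2.00, 1.95 and 1.21 FPKM in Has-tKO 1 to 4, against 2.17, 3.54, 3.37 and 3.44 FPKM in wildtype 1 to 4. Again the groups did not overlap, and wildtype 1 lay closest to Has-tKO. After scaling the 4 wildtype libraries came together at 3.28, 3.28, 3.21 and 3.49 scaled FPKM, against 1.31, 1.75, 1.76 and 1.12 scaled FPKM in Has-tKO 1 to 4. On the log2 scale the difference was -0.63 (SE 0.18, adjusted p from limma 0.0901) as deposited and -0.81 (SE 0.12, adjusted p 0.0142) after scaling. As deposited, it passed only without wildtype 1 among the 8 fits that leave out 1 library. After scaling it passed in 5 of 8, and not without Has-tKO 1, wildtype 2 or wildtype 4 (0.0201 to 0.0665). Cacna1h lies within 10 Mb of Has1 on chromosome 17, as do Pkd1, Clcn7 and Itpr3, of which none passed in either fit. The part of this position in the result was not tested.

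Cacng7 encodes a transmembrane protein of the calcium channel gamma family that also regulates AMPA-type glutamate receptors in neurons. Its FPKM values were 1.43, 1.73, 3.60 and 0.591 in Has-tKO 1 to 4, against 2.61, 5.90, 4.98 and 4.66 in wildtype 1 to 4. Has-tKO 3 lay above wildtype 1 as deposited, and after scaling the groups no longer overlapped, with at most 3.26 scaled FPKM in Has-tKO and at least 3.96 in wildtype. The fold change, as log2, was -1.03 (SE 0.30, adjusted p from limma 0.101) as deposited and -1.20 (SE 0.26, adjusted p 0.0457) after scaling, the most negative of the 42 in both fits. After scaling it passed without Has-tKO 3 or wildtype 1 alone among the 8 fits that leave out 1 library (0.0247 to 0.158).

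The other calcium channel subunits did not pass. Cacna1g, above Cacna1h in FPKM in every library, had a log2 fold change of 0.23 (SE 0.21) as deposited and -0.01 (SE 0.11) after scaling. Cacna1d, an L-type pore, averaged 1.59 ± 0.173 FPKM in Has-tKO and 1.02 ± 0.464 FPKM in wildtype, and Cacna1b, the N-type pore, averaged 1.67 ± 0.122 FPKM in Has-tKO and 1.79 ± 0.754 FPKM in wildtype. Cacna1c, the main L-type pore of heart and smooth muscle, stayed below the filter, with 0.828, 0.808, 0.788 and 0.391 FPKM in Has-tKO 1 to 4, against 0.190, 0.409, 0.282 and 0.363 FPKM in wildtype 1 to 4. Only Has-tKO 4 of the Has-tKO libraries fell inside the wildtype range. Among auxiliary subunits, Cacna2d1, which carries the pores to the membrane and binds gabapentin, averaged 3.33 ± 0.857 FPKM in Has-tKO and 3.83 ± 1.22 FPKM in wildtype. The beta subunit Cacnb3 averaged 3.91 ± 0.738 FPKM in Has-tKO and 4.10 ± 1.03 FPKM in wildtype.

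**Figure D2:**
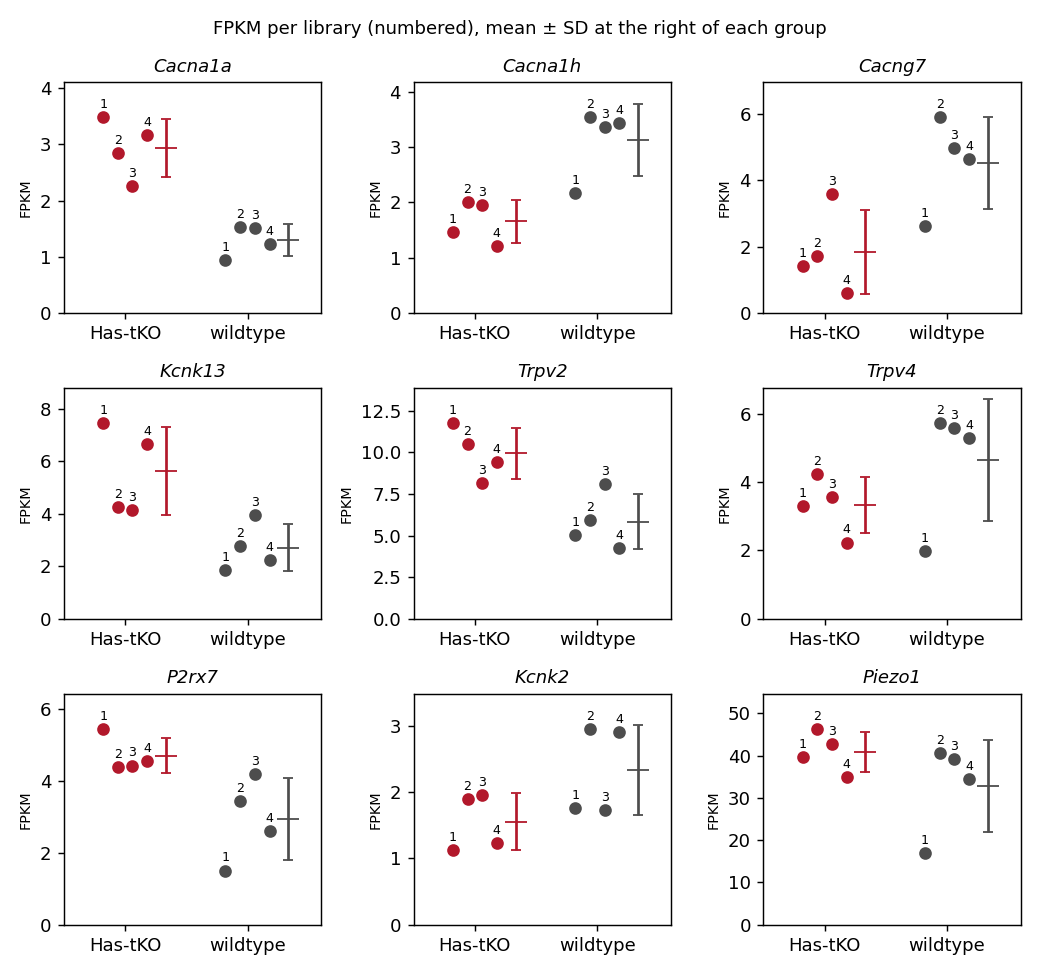
FPKM as deposited (vertical axes, each from 0) of 9 members in each library, Has-tKO in red on the left and wildtype in grey on the right, numbered by replicate, with the mean ± SD beside each group. Cacna1a, Kcnk13, Trpv2 and P2rx7 do not overlap with Has-tKO above, Cacna1h does not overlap with Has-tKO below, and wildtype 1 is low in the Piezo1 and Trpv4 panels.

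Of the members, none of the Piezo channels, the polycystins, Trpv4 or Kcnk2, channels linked to stretch, swelling or flow, passed with all 8 libraries, as deposited or after scaling. Piezo1 had 39.6, 46.2, 42.7 and 35.0 FPKM in Has-tKO 1 to 4, against 16.9, 40.7, 39.3 and 34.5 FPKM in wildtype 1 to 4. Apart from wildtype 1, the genotypes covered much the same range. The fit gave a log2 fold change of 0.37 (SE 0.25, adjusted p from limma 0.474) as deposited and 0.12 (SE 0.14, adjusted p 0.697) after scaling. Piezo2, the touch channel of sensory neurons, was far lower, with 1.84 ± 0.459 FPKM in Has-tKO and 1.47 ± 0.604 FPKM in wildtype. Pkd1 and Pkd2 had log2 fold changes of 0.10 and -0.05 as deposited and of -0.15 and -0.29 after scaling. After scaling the groups did not overlap for Pkd2, which was lower in Has-tKO (adjusted p 0.171).

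Trpv4 is an osmotically and mechanically gated calcium channel of chondrocytes and osteoblasts. It had 3.29, 4.23, 3.57 and 2.23 FPKM in Has-tKO 1 to 4, against 1.97, 5.72, 5.59 and 5.29 FPKM in wildtype 1 to 4. Wildtype 1 lay below every Has-tKO library, and the other 3 wildtype libraries lay above all of them. The fitted log2 fold change was -0.33 (SE 0.26, adjusted p from limma 0.549) as deposited and -0.52 (SE 0.19, adjusted p 0.181) after scaling. Leaving out wildtype 1 gave -0.61 (adjusted p 0.0671) as deposited and -0.69 (adjusted p 0.0416) after scaling, and this last value passed. Kcnk2 (TREK-1), a potassium channel opened by membrane stretch, had 1.13, 1.90, 1.95 and 1.24 FPKM in Has-tKO 1 to 4, against 1.76, 2.94, 1.73 and 2.90 FPKM in wildtype 1 to 4. Wildtype 1 and wildtype 3 fell inside the Has-tKO range, and the log2 fold change was -0.38 (SE 0.19, adjusted p 0.350) as deposited and -0.54 (SE 0.17, adjusted p 0.120) after scaling.

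Trpv2 is a calcium-permeable channel known from macrophages and muscle. Its libraries had 11.7, 10.5, 8.14 and 9.40 FPKM in Has-tKO 1 to 4, against 5.05, 5.91, 8.10 and 4.25 FPKM in wildtype 1 to 4. The groups did not overlap, although Has-tKO 3 and wildtype 3 were almost level. The log2 fold change was 0.70 (SE 0.20, adjusted p from limma 0.0898) as deposited and 0.47 (SE 0.18, adjusted p 0.198) after scaling. Without wildtype 3 the adjusted p as deposited was 0.0355. Trpm7, a magnesium and calcium channel fused to a kinase, averaged 7.99 ± 1.15 FPKM in Has-tKO and 6.30 ± 2.43 FPKM in wildtype. Trpm4, a calcium-activated sodium-permeable channel, averaged 2.97 ± 0.338 FPKM in Has-tKO and 3.15 ± 0.138 FPKM in wildtype. Trpc1 stayed below the filter, with 0.572 ± 0.104 FPKM in Has-tKO and 0.615 ± 0.184 FPKM in wildtype.

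The purine receptors that passed the filter, 2 of 7 P2X and 1 of 7 P2Y genes, were all higher in Has-tKO by their means. Of all tested genes, 73.3% had a positive fold change as deposited. None of these receptors passed the test. P2rx7, the ATP-gated channel that triggers inflammasome activation in macrophages and is also found on osteoblasts, had 5.44, 4.40, 4.44 and 4.57 FPKM in Has-tKO 1 to 4, against 1.51, 3.43, 4.19 and 2.62 FPKM in wildtype 1 to 4. No wildtype library reached the lowest Has-tKO library, and wildtype 3 came closest. Its log2 fold change was 0.58 (SE 0.21, adjusted p from limma 0.188) as deposited and 0.39 (SE 0.14, adjusted p 0.181) after scaling. P2rx4, an ATP-gated channel of macrophages, endothelium and neurons, had 9.31, 7.17, 7.29 and 9.64 FPKM in Has-tKO 1 to 4, against 3.05, 6.70, 7.58 and 5.17 FPKM in wildtype 1 to 4. Here wildtype 3 lay above Has-tKO 2 and 3, and the log2 fold change was 0.54 (SE 0.23, adjusted p 0.252). P2ry2, a receptor for ATP and UTP that couples to Gq, averaged 1.95 ± 0.689 FPKM in Has-tKO and 0.813 ± 0.475 FPKM in wildtype, with overlap (log2 fold change 0.70, SE 0.23, adjusted p 0.137). It passed the filter through Has-tKO 1 to 3 and wildtype 3.

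P2ry12, an ADP receptor known from platelets and microglia, missed the filter. It had 2.04, 0.764, 0.626 and 3.49 FPKM in Has-tKO 1 to 4, against 0, 0.315, 0.895 and 0.329 FPKM in wildtype 1 to 4. The high values sat in Has-tKO 1 and 4 alone. Downstream of Gq, the release channel Itpr3 had 12.0, 12.0, 10.5 and 9.16 FPKM in Has-tKO 1 to 4, against 3.99, 9.21, 9.04 and 8.56 FPKM in wildtype 1 to 4. Has-tKO 1 to 3 lay above every wildtype library, Has-tKO 4 lay inside the wildtype range, and the log2 fold change was 0.50 (SE 0.23, adjusted p from limma 0.300) as deposited and 0.28 (SE 0.14, adjusted p 0.307) after scaling. Its relatives Itpr1 and Itpr2 had log2 fold changes of -0.07 and 0.17 as deposited.

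Among potassium channels, the largest difference as deposited was in Kcnk13 (THIK-1), a leak channel known from microglia, where it sets the resting potential. After scaling, Kcnh2, described below, differed more, with a negative fold change. Kcnk13 had 7.44, 4.27, 4.15 and 6.66 FPKM in Has-tKO 1 to 4, against 1.87, 2.77, 3.95 and 2.24 FPKM in wildtype 1 to 4. Has-tKO 1 and 4 were high, Has-tKO 2 and 3 stood just above wildtype 3, and the groups did not overlap as deposited. After scaling, wildtype 3 (3.76 scaled FPKM) overlapped Has-tKO 2 (3.73) and Has-tKO 3 (3.75). On the log2 scale the difference was 0.83 (SE 0.22, adjusted p from limma 0.0779) as deposited and 0.63 (SE 0.19, adjusted p 0.121) after scaling. Without wildtype 3 the adjusted p as deposited was 0.0384.

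Kcnj2, the inward rectifier Kir2.1 that holds the resting potential near that of potassium, averaged 4.10 ± 1.27 FPKM in Has-tKO and 2.38 ± 0.613 FPKM in wildtype (log2 fold change 0.58, SE 0.21, adjusted p from limma 0.188). Kcnk6, another leak channel, averaged 4.82 ± 0.281 FPKM in Has-tKO and 3.98 ± 0.762 FPKM in wildtype. The remaining potassium channel genes had negative fold changes in both fits, and none passed. Kcnh2 (hERG), known for repolarising the heart, had 0.966, 1.12, 1.56 and 0 FPKM in Has-tKO 1 to 4, against 1.41, 2.11, 1.63 and 2.07 FPKM in wildtype 1 to 4. Has-tKO 4 was listed at 0, and only Has-tKO 3 lay inside the wildtype range (log2 fold change -0.63, SE 0.26, adjusted p 0.238). Kcnn1, a small-conductance calcium-activated channel, averaged 1.55 ± 0.401 FPKM in Has-tKO and 2.13 ± 0.420 FPKM in wildtype. After scaling its log2 fold change was -0.46 (SE 0.13, adjusted p 0.0992). Kcne4, a subunit that inhibits some voltage-gated potassium channels, averaged 5.07 ± 1.06 FPKM in Has-tKO and 6.85 ± 2.10 FPKM in wildtype, and Kcnj15, another inward rectifier, averaged 0.921 ± 0.368 FPKM in Has-tKO and 1.53 ± 0.635 FPKM in wildtype. Kcnma1, the large-conductance calcium-activated channel BK, stayed below the filter with 0.578 ± 0.169 FPKM in Has-tKO and 0.559 ± 0.242 FPKM in wildtype.

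Anion channels gave 0 calls from limma in either fit. Clcn5, an endosomal chloride and proton exchanger, had 3.83, 4.29, 2.93 and 5.21 FPKM in Has-tKO 1 to 4, against 1.48, 2.21, 3.14 and 1.97 FPKM in wildtype 1 to 4. Only wildtype 3 reached the Has-tKO range (log2 fold change 0.67, SE 0.20, adjusted p 0.109, and 0.48 with adjusted p 0.149 after scaling). Ano6, the calcium-activated lipid scramblase that takes part in mineralisation in mice, averaged 9.15 ± 0.578 FPKM in Has-tKO and 7.65 ± 2.60 FPKM in wildtype. Ano5, the anoctamin mutated in human gnathodiaphyseal dysplasia, had at most 0.112 FPKM in Has-tKO and 0.251 FPKM in wildtype.

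Members whose groups did not overlap were few. As deposited, 4 of the 42 were higher in every Has-tKO library (Kcnk13, P2rx7, Cacna1a and Trpv2), or 9.52%, beside 12.0% of all tested genes, and 1 was lower (Cacna1h), or 2.38%, beside 1.53%. After scaling, 1 was higher (Cacna1a, 2.38%, beside 5.64%) and 6 were lower (among them Cacna1h, Kcnh2, Pkd2, Cacng7 and Kcnn1), or 14.3%, beside 7.6% of all tested genes. Wildtype 1 was the lowest wildtype library for 36 of the 42 as deposited (85.7%, beside 74.6% of all tested genes) and for 21 of the 42 after scaling (50.0%, beside 40.6%).

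**Figure D3:**
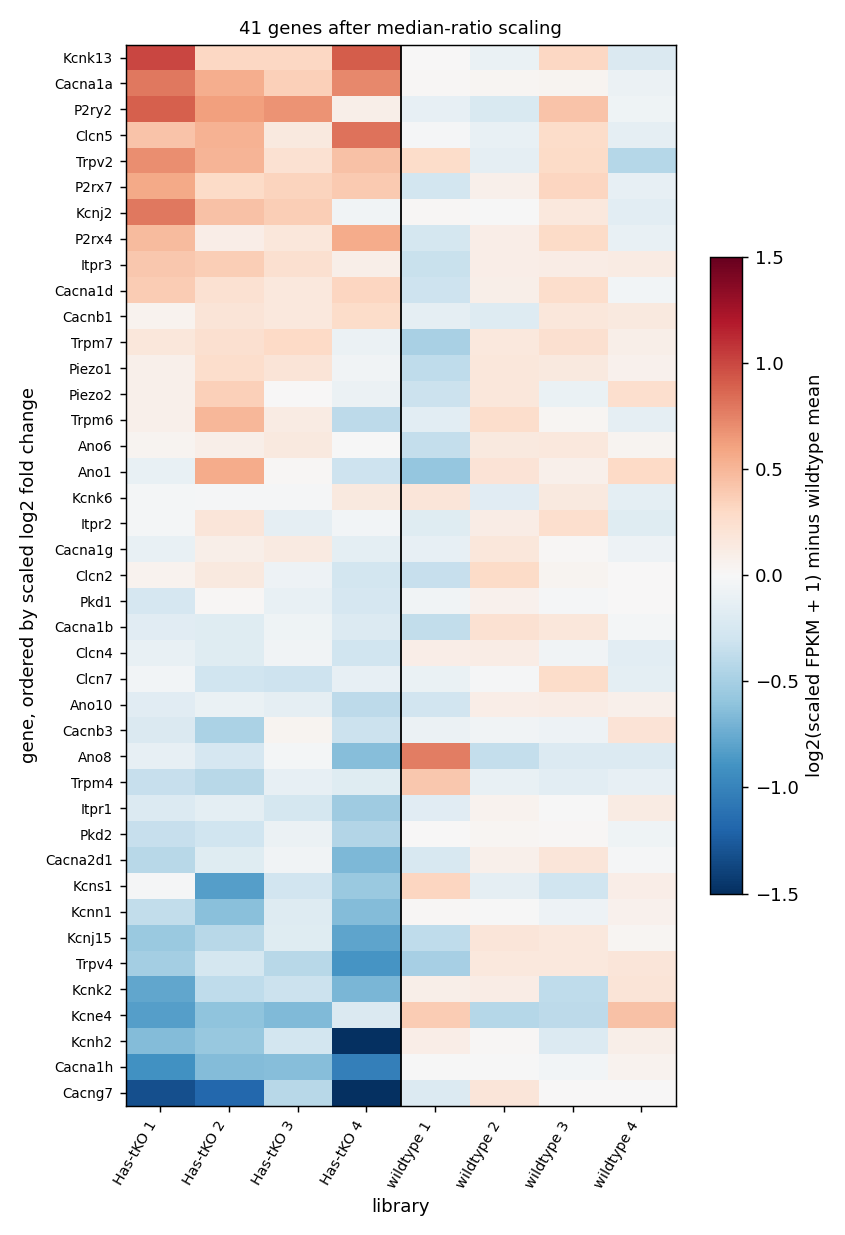
Deviation of log2(scaled FPKM + 1) from the wildtype mean (colour scale from -1.5 in blue to 1.5 in red) for 41 of the 42 tested members (rows, ordered by scaled fold change) in each library (columns, Has-tKO left of the line and wildtype right of it). Rows at the top, Kcnk13 to P2rx7, are red or pale red in Has-tKO and, apart from the nearly white Cacna1a, pale red in wildtype 3, and Cacna1h and Cacng7 at the bottom are blue in all 4 Has-tKO libraries.

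Among the 8 higher members with the smallest p, named below, wildtype 3 was mostly the wildtype library closest to Has-tKO. It was the highest wildtype library for 15 of the 17 tested myeloid markers as deposited and for 11 after scaling, where wildtype 1 was the highest for the other 6. The myeloid sum was 1116, 834, 689 and 1072 FPKM in Has-tKO 1 to 4, against 404, 441, 698 and 409 FPKM in wildtype 1 to 4, so that wildtype 3 stood above Has-tKO 3. After scaling it was 1001, 729, 623 and 992 in Has-tKO 1 to 4, against 612, 409, 664 and 416 in wildtype 1 to 4, and wildtype 1 then lay next to wildtype 3. Of the 8 higher members with the smallest p (Cacna1a, Kcnk13, Trpv2, Clcn5, P2ry2, P2rx7, Kcnj2 and P2rx4), wildtype 3 was the highest wildtype library in 7 as deposited and in 8 after scaling, beside 29.3% and 22.0% of all tested genes. This does not hold for all tested members, where as deposited wildtype 2 was the highest wildtype library in 54.8% and wildtype 3 in 35.7%. After scaling, wildtype 3 was the highest in 38.1% of them and wildtype 2 in 23.8%. Among the 8 named, Cacna1a, Kcnk13, P2rx7 and P2rx4 were highest in Has-tKO 1 and 4 as deposited, while Trpv2, Clcn5 and P2ry2 were not. The share of all tested genes with these libraries highest was not counted. P2ry12, below the filter, was also highest in Has-tKO 1 and 4, as were 14 of the 17 tested myeloid genes, the exceptions being Clec7a, Cx3cr1 and Ptprc. Examples are Csf1r (115, 84.4, 70.5 and 110 FPKM in Has-tKO 1 to 4, against 31.4, 49.2, 74.6 and 39.9 FPKM in wildtype 1 to 4) and Spi1 (15.5, 10.4, 13.9 and 16.8 FPKM in Has-tKO 1 to 4, against 4.50, 7.14, 9.54 and 4.54 FPKM in wildtype 1 to 4). Spi1 encodes PU.1, the transcription factor of the myeloid lineage, and Csf1r the receptor that keeps macrophages alive. The part of myeloid RNA in these members' values was not tested.

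**Figure D4:**
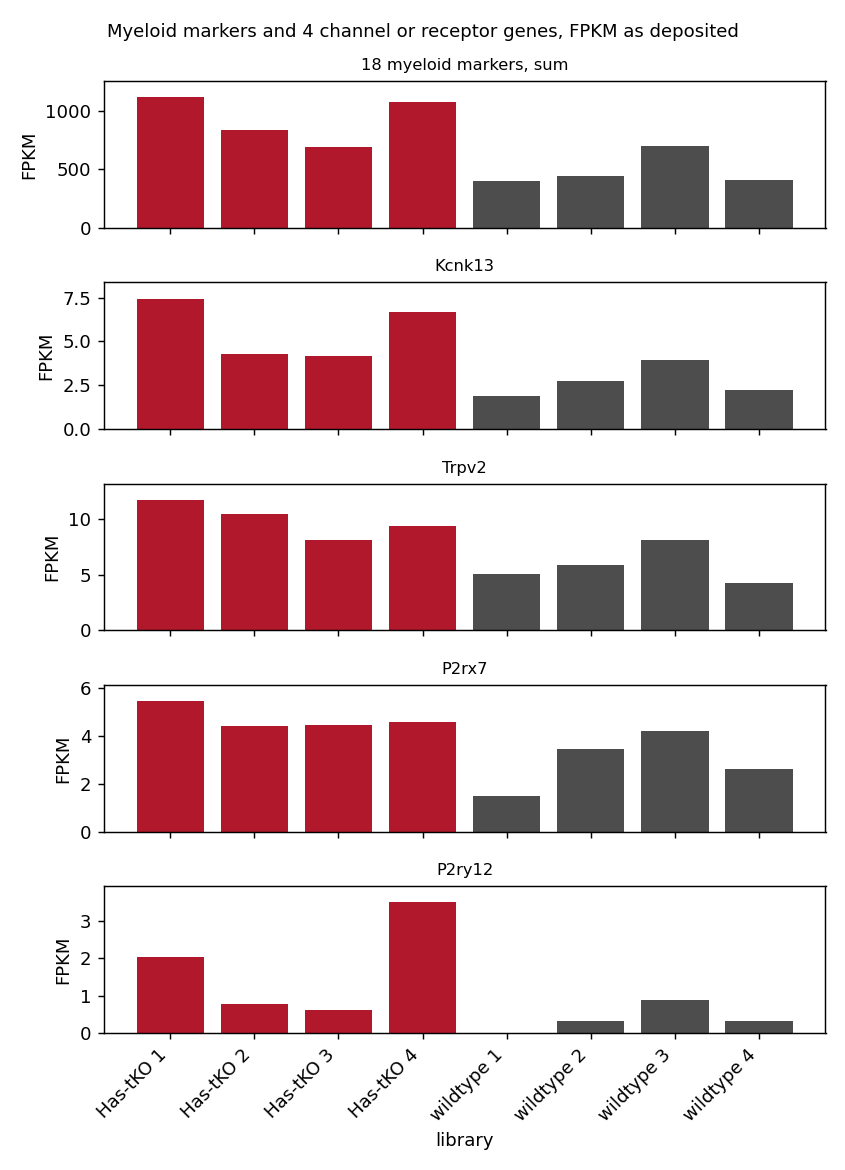
FPKM as deposited (vertical axes, from 0) in each library (horizontal axis, Has-tKO 1 to 4 in red, then wildtype 1 to 4 in grey) for the sum of 18 myeloid markers, Kcnk13, Trpv2, P2rx7 and P2ry12. In all 5 panels wildtype 3 is the tallest wildtype bar. The genes shown were picked with values of these data known, so this describes them alone. Cacna1a, not shown, was highest in wildtype 2 among the wildtype libraries.

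Promoter sequences are shown for members at each end of the comparison: Trpv2 and Kcnk13, set beside the myeloid markers above, and Cacng7, which fell after scaling. Each is 300 bases long, from 250 before to 50 after an annotated start, 5′ to 3′, from RefSeq on GRCm38.p6. Windows were found for 33 of the 42 tested members. Trpv2 has 3 windows, of which 2 overlap and share the PU.1 match and the other holds none; shown is the first listed, at chr11:62574236-62574535 on the plus strand. Kcnk13 has 1 at chr12:99964249-99964548 on the plus strand and Cacng7 has 1 at chr7:3332575-3332874 on the plus strand. Capitals mark a match to the PU.1 core.
Trpv2: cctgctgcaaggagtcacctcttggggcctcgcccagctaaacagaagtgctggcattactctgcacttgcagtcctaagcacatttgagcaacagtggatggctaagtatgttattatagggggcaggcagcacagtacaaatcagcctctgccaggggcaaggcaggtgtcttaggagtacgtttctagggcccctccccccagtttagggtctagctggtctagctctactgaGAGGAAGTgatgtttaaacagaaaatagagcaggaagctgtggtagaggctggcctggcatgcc
Kcnk13: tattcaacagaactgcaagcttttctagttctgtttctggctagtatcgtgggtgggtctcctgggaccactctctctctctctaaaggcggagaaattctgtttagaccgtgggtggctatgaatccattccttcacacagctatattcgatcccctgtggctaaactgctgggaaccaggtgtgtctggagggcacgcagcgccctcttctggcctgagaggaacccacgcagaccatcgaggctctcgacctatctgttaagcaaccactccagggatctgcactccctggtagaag
Cacng7: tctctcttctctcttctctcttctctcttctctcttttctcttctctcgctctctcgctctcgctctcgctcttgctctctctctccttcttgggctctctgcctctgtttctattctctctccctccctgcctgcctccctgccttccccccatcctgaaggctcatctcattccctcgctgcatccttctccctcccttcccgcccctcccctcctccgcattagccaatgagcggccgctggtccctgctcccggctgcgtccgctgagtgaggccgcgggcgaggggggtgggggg

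Searched on both strands were GAGGAAGT as the PU.1 core, TGTGGTT as the Runx core and TGANTCA as the AP-1 core. The PU.1 core stood in 4 of 47 windows of tested members, or 8.51%, and in 3.20% of all 32851 windows of that length. Of these 4 windows, 2 are the overlapping Trpv2 windows, which hold the same match. The Runx core stood in 2 of the 47 and in 5.27% of all windows, and the AP-1 core in 2 of the 47 and in 7.81%. The Kcnk13 and Cacng7 windows hold none of the 3. Matches are descriptions of letters, with no data here on binding.

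The partners of these channels were followed through 8 lists. Of 8 tested genes of store-operated entry and calcium release, 0 passed limma's test in either fit (2 at an unadjusted p under 0.05 in each), and the smallest p values were those of Mcoln2, a lysosomal cation channel, and Orai2, a pore of store-operated entry. Mcoln2 averaged 5.37 ± 1.25 FPKM in Has-tKO and 2.49 ± 1.32 FPKM in wildtype (log2 fold change 0.93, SE 0.27, adjusted p 0.0982), and Orai2 averaged 7.65 ± 0.961 FPKM in Has-tKO and 4.47 ± 1.83 FPKM in wildtype (log2 fold change 0.73, SE 0.25, adjusted p 0.164). Of 15 calcium pumps, exchangers and uniporter genes, Atp2a3 was higher. Atp2a3 encodes the SERCA3 pump that returns calcium to the endoplasmic reticulum, in blood cells among others. It had 9.54, 5.88, 6.73 and 5.08 FPKM in Has-tKO 1 to 4, against 2.16, 2.48, 3.16 and 2.52 FPKM in wildtype 1 to 4, with no overlap (log2 fold change 1.10, SE 0.19, adjusted p from limma 0.0190, and 0.89 with adjusted p 0.0322 after scaling). Leaving out 1 library at a time, Atp2a3 passed in 6 of 8 fits as deposited, not without Has-tKO 1 or wildtype 4 (adjusted p 0.0140 to 0.0807), and in 3 of 8 after scaling (0.0308 to 0.118). Slc8a3, a sodium and calcium exchanger, was lower after scaling (log2 fold change -0.85, adjusted p 0.0389), and there passed without wildtype 1 or wildtype 3 alone among those 8 fits (0.0295 to 0.140).

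Genes that handle extracellular ATP and adenosine held 2 of 9 that were higher in both fits. Entpd1 (CD39), which degrades ATP and ADP outside the cell, averaged 4.08 ± 1.09 FPKM in Has-tKO and 1.52 ± 0.634 FPKM in wildtype (log2 fold change 1.02, SE 0.22, adjusted p from limma 0.0426, and 0.85 with adjusted p 0.0469 after scaling). Adora2b, the low-affinity adenosine receptor, had 6.42, 3.51, 3.10 and 4.75 FPKM in Has-tKO 1 to 4, against 0.449, 1.69, 1.11 and 0.835 FPKM in wildtype 1 to 4, and the groups did not overlap. Its log2 fold change was 1.43 (SE 0.23, adjusted p from limma 0.0156), and 1.27 with adjusted p 0.0189 after scaling. Adora2b passed in 6 of the 8 fits that leave out 1 library as deposited, not without Has-tKO 1 or wildtype 4 (0.0143 to 0.0731), and in 5 of 8 after scaling (0.0251 to 0.0756). Entpd1 passed without Has-tKO 3, wildtype 1 or wildtype 3 alone as deposited (0.0196 to 0.164), and without Has-tKO 3 or wildtype 3 alone after scaling (0.0327 to 0.167). Entpd4, a Golgi and lysosomal enzyme of the same family, was lower after scaling (log2 fold change -0.57, adjusted p 0.0384), and there passed without Has-tKO 3 or wildtype 1 alone (0.0295 to 0.138). Of 11 phospholipase C and Gq genes, Gna15, the G protein alpha subunit of blood cells, was higher, with 4.59 ± 1.50 FPKM in Has-tKO and 1.53 ± 0.362 FPKM in wildtype (log2 fold change 1.11, SE 0.21, adjusted p 0.0251, and 0.93 with adjusted p 0.0393 after scaling). In both fits Gna15 passed without Has-tKO 3, wildtype 1 or wildtype 3 alone (0.0187 to 0.115 as deposited and 0.0251 to 0.148 after scaling).

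Outside the symbol pattern, 1 channel was lower in both fits and 1 after scaling alone. Asic3, an acid-sensing sodium channel, had 2.56, 3.56, 6.19 and 5.06 FPKM in Has-tKO 1 to 4, against 7.62, 12.4, 11.8 and 8.48 FPKM in wildtype 1 to 4, with no overlap. It was the 1 of 10 tested genes among other cation and mechanosensitive channels that passed (log2 fold change -1.08, SE 0.24, adjusted p from limma 0.0454, and -1.30 with adjusted p 0.0196 after scaling). Leaving out 1 library at a time, Asic3 passed without Has-tKO 3 or wildtype 1 alone as deposited (0.0304 to 0.157), and in 4 of 8 fits after scaling, not without Has-tKO 1, Has-tKO 2, wildtype 2 or wildtype 4 (0.0247 to 0.0698). Panx3, a large-pore channel of osteoblasts and chondrocytes that releases ATP, had 2.32, 2.99, 3.33 and 3.12 FPKM in Has-tKO 1 to 4, against 3.60, 6.40, 5.19 and 7.78 FPKM in wildtype 1 to 4. It was the 1 of 13 anion and large-pore channels that passed after scaling (log2 fold change -0.94, adjusted p 0.0173), and 0 passed as deposited, where 7 stood at an unadjusted p under 0.05 (Panx3 -0.74, SE 0.20, adjusted p 0.0861). After scaling Panx3 passed in 5 of the 8 fits that leave out 1 library, not without Has-tKO 1, wildtype 2 or wildtype 4 (0.0201 to 0.0629). Its relative Panx1, found in most cells, averaged 4.33 ± 0.424 FPKM in Has-tKO and 2.63 ± 0.854 FPKM in wildtype (log2 fold change 0.58, SE 0.18, adjusted p 0.120). Of the 5 tested osteoblast markers, Ibsp and Alpl were lower after scaling too (adjusted p from limma 0.0142 and 0.0139), and Dmp1 had a positive fold change in both fits. Of the 7 tested chondrocyte markers, 3 were lower as deposited and 4 after scaling, and 0 had a positive fold change in either fit. The part of the osteoblast or chondrocyte state in the Panx3 value was not tested.

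Calmodulin, calcineurin and NFAT genes gave 0 calls of 17 in either fit from limma, with 4 at an unadjusted p under 0.05 as deposited and 6 after scaling. As deposited, the smallest p values were those of the kinase Camk1 (log2 fold change 0.58, SE 0.17, adjusted p 0.112) and of Nfatc2, a transcription factor (0.60, SE 0.21, adjusted p 0.171). After scaling they were those of Rcan2 (-0.43, SE 0.12, adjusted p 0.0961) and Nfatc4 (-0.56, SE 0.17, adjusted p 0.118), both negative. Sodium pump and cotransport genes gave 0 of 9 in either fit, with 2 at an unadjusted p under 0.05 in each, as deposited including the potassium and chloride cotransporter Slc12a7 (log2 fold change 0.55, SE 0.24, adjusted p from limma 0.274).

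Below the filter, 4 of 117 members above 0 in some library (3.42%, beside 1.92% of all 17304 such named loci) were higher in every Has-tKO library than in any wildtype library as deposited, Kcnf1, Kcnk10, Scn7a and Ano3. They were picked for this pattern and were not tested. Ano3, an anoctamin of neurons, had 0.453, 0.496, 0.576 and 0.713 FPKM in Has-tKO 1 to 4, against 0.129, 0.194, 0.196 and 0.217 FPKM in wildtype 1 to 4. Kcnf1, a silent subunit that modifies other potassium channels, averaged 0.533 ± 0.139 FPKM in Has-tKO and 0.189 ± 0.105 FPKM in wildtype. After scaling Kcnk10 and Ano3 still did not overlap (1.71%, beside 1.21%), and Kcnk1 was lower in every Has-tKO library (0.855%, beside 1.36%). All 42 tested members carry StringTie locus identifiers, as do 106 of the 189. The other 83, with Ensembl identifiers, held none that passed the filter.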

How the data were processed

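RNA was depleted of ribosomal RNA, reverse transcribed, tagmented (Nextera) and sequenced, per the labels' protocols, and the libraries do not mark strand. The deposited table holds FPKM values made by the authors for 8 libraries and 76557 loci. Per the submitters' processing notes, bcl2fastq, fastp, HISAT2, StringTie and DESeq2 were used, with GRCm39 and hg38 as builds; no source used here gives versions, options, what hg38 served for, or how transcript values became 1 value per locus. Read counts were not used, so the depth behind each value is unknown and no counting interval can be given. Columns were matched to libraries by name, per the file headers.

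Named loci that reached 1 FPKM in 4 or more libraries (9916) were fitted with limma 3.58.1 in R 4.3.3 on log2(FPKM + 1), with an intensity trend, two-sided, and Benjamini-Hochberg adjustment over all 9916 at a threshold of 0.05. The same fit was made after dividing each library by its median-ratio size factor over 19489 loci above 0 in every library. The fit was tested on simulated data. Chromosome and neighbourhood came from the GENCODE annotation of GRCm38, which differs from the authors' build, so no gene coordinates are printed.

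The members and lists were chosen with earlier results of these data known, and their values are descriptions beside those of all tested genes. Named are members that passed in either fit, the 8 higher and 8 lower members with the smallest p, the 10 with the highest mean, 19 genes of mechanosensation, and from each of 8 pathway lists the genes that passed or else the 2 with the smallest p; genes that this rule also names but that are not described are not reported here. Further genes, such as P2ry12, Ier2, Zswim4, Cacna1d, Piezo1's neighbour Ctu2, Kcnf1, Ano3 and the myeloid genes Csf1r and Spi1, were chosen after their values were seen. Alternatives were the scaling and the set of loci behind it, the pseudocount, the filter on low values, the intensity trend, a replicate block, and leaving out libraries; scaling over expressed named loci and scaling within the fits that leave out 1 library were chosen after seeing the data.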

Additional observations from a re-analysis of the deposited data

Results flagged for a closer look

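In 5 of 92 groups of 4 libraries, 1 library lay far from the other 3, where chance gives about 1 in 20 such groups. Of these, 3 are wildtype 1, low in Cacna1h (2.17 FPKM), Itpr3 (3.99 FPKM) and Trpv4 (1.97 FPKM). The other 2 are in Has-tKO: Cacna1c was low in Has-tKO 4 (0.391 FPKM), and P2rx7 was high in Has-tKO 1 (5.44 FPKM). Wildtype 1 has the lowest size factor of the 8 libraries, 0.660, and the part of its depth or composition in these values was not tested.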

How the results depend on the processing

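Of the 42 tested members, 1 passed as deposited, and the count was 3 after median-ratio scaling and 3 after scaling over expressed named loci (280 genes in all), in each case Cacna1a, Cacna1h and Cacng7. It was 0 with a pseudocount of 0.1 (111 genes), 0 with no filter on low values (2 genes) and 0 with at least 1 FPKM in all 8 libraries (Cacna1a is then not among the 29 members tested). It was 2 without wildtype 1 and Has-tKO 4 together (358 genes). Leaving out 1 library at a time, as deposited or after scaling, gave 0 to 4 members and 9 to 349 genes. In those fits the median log2 fold change of the members ran from -0.14 to 0.20, and 41 or 42 members reached 1 FPKM in 4 or more libraries in each fit that leaves out 1 library. With 4 mice per genotype and unknown depth, a member that missed the threshold is not shown to be alike in both genotypes.

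Replicate numbers were not used to pair the libraries in the main fit. Deviations of same-numbered libraries from their group means correlated at -0.08, 0.31, -0.12 and -0.06. Those of differently numbered libraries correlated at -0.34 to 0.34. Deviations centred within each group cannot show whether libraries were handled in pairs. With a replicate block, 0 members and 147 genes passed, and with the block and scaling, 0 members and 31 genes.

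Signs changed for 10 of the 34 members that the naming rule gives, near no change, and also for Clcn2 (-0.035) and Itpr2 (-0.0077) after scaling; the cause was not tested. Ano10 was -0.20 after scaling, with or without the block, -0.15 with scaling over expressed loci and -0.13 without wildtype 1 and Has-tKO 4. Clcn7 was -0.19, -0.14 and -0.14 under the same settings, and Pkd1 was -0.15, -0.092 and -0.0217. Clcn4 was -0.16 after scaling, with or without the block, and -0.11 over expressed loci, and Cacna1g was -0.011 after scaling with or without the block. In the fits that leave out 1 library, as deposited or after scaling, Ano10 ran from -0.29 to 0.13, Ano6 from -0.051 to 0.40, Cacna1g from -0.059 to 0.35, Clcn4 from -0.21 to 0.17, Clcn7 from -0.24 to 0.20, Piezo1 from -0.0036 to 0.50, Piezo2 from -0.021 to 0.32, Pkd1 from -0.20 to 0.20, Pkd2 from -0.36 to 0.029 and Trpm7 from -0.0092 to 0.50.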
